A study of Zea mays with 58 samples.

Results

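Roots of maize seedlings taken 30 min after a transfer to nitrogen medium were compared with roots taken 5 min after the same transfer. The comparison was defined by the sample titles, which give time, replicate and medium: replicates 1, 2 and 3 of the nitrogen arm at 30 min and at 5 min, 6 of the 58 libraries in all. No measured value entered the definition of these groups, although the comparison was chosen with earlier results of these data known. All plants were of the inbred line B73, were 10 days old, had lost their endosperm before the treatment and had been without nitrogen for 2 days. They were moved to fresh medium with 20 mM KNO3 and 20 mM NH4NO3, part of it carrying the 15N isotope (N), or with 20 mM KCl (noN). Each replicate pooled 3 seedlings, and roots were profiled in bulk. Messenger RNA was counted by 3' sequencing with unique molecular identifiers, which places reads near the polyadenylated end of a transcript and counts each captured molecule once. The 6 libraries held 2086945 to 2643650 counts, within the 1978039 to 3790442 counts of all 58.

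Roots sense nitrate itself as a signal besides using it as a nutrient. In Arabidopsis, the nitrate transporter NRT1.1 acts as a sensor and calcium-dependent kinases activate NIN-LIKE PROTEIN transcription factors, which bind nitrate-responsive genes within minutes of supply. First among the induced genes are known to be those for nitrate uptake and reduction and for further transcription factors, so a comparison inside the first minutes addresses the onset of this response. The N arm alone cannot tell nitrogen from elapsed time, handling or fresh medium. The noN arm was sampled at the same times and is given beside part of the results, although its medium also differs in chloride and in total salt. A result without a noN value beside it describes the N arm only.

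Genes carry only IDs in the deposited tables, and no name could be attached to any gene tested: 0 of 18872 matched the reference table of gene names. The lists of nitrate transport, assimilation and regulatory genes drawn up for this comparison therefore have 0 members, and the root tissue could not be checked against its marker genes. Results are given for the genes as groups, by annotation class, position and time course, and for 4 single IDs.

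Between 5 and 30 min in N, 1188 of 18872 genes tested changed (6.30%), and risen genes outnumbered fallen ones. Risen genes numbered 822 (4.36%) and fallen genes 366 (1.94%), by edgeR's quasi-likelihood test at an adjusted p of 0.05. The median log2 fold change of the risen genes was 1.26, with quartiles of 0.89 and 1.94, and their median level was 43.5 CPM (counts scaled to a common library size) at 30 min, against 17.1 CPM at 5 min. Fallen genes had a median of -1.11, with quartiles of -1.72 and -0.85, and a median level of 18.8 CPM at 30 min, against 39.9 CPM at 5 min. Over all genes tested the median was -0.01. In bulk roots, a transcript can become scarcer because there are fewer cells of a type or less RNA per cell, and counts cannot tell these apart.

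The 3 libraries of 30 min stood above all 3 of 5 min for 799 of the 822 risen genes and below them for 354 of the 366 fallen genes. Among all genes tested, 10.2% were separated upward in this way and 9.67% downward. The called genes were chosen by their difference between these same libraries, so their separation largely follows from the choice. Fallen calls leaned most on replicate 3 of 5 min: without it 202 genes were called lower, and 176 of them were among the 366. That library lay farthest out on the first principal component of the 6 libraries, at -43.22, against -33.72 and -31.82 for the other 5 min libraries and 35.76 to 36.50 for those of 30 min. This component held 41.6% of the variance. Log2 CPM correlated across genes at 0.954 to 0.978 within a group and at 0.927 to 0.946 between the groups. No pair of replicates agreed within sampling noise (chi-square of 2.16 to 7.68 per degree of freedom), so none was treated as a library deposited again.

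**Figure D1:**
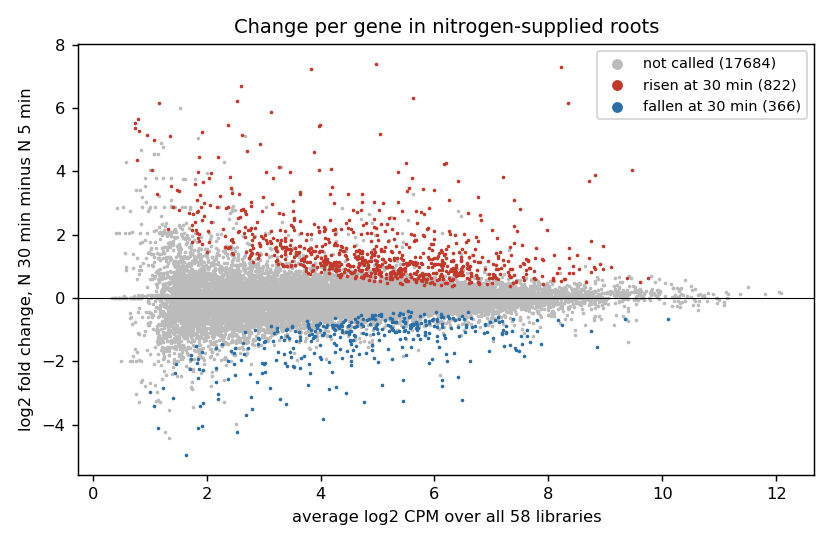
Each point is a gene, with its average log2 CPM over all 58 libraries on the x axis and its log2 fold change, N at 30 min minus N at 5 min, on the y axis. The 822 risen genes and the 366 fallen genes are coloured, and the rise extends farther from 0, to 7.40, than the fall, to -4.97.

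Large changes were mostly upward. A log2 change of at least 1 was reached by 555 risen genes (2.94%) and by 221 fallen genes (1.17%), and one of at least 2 by 199 risen genes (1.05%) and 64 fallen genes (0.339%). Past a log2 change of 4 there were 36 risen genes (0.191%) and 5 fallen genes (0.0265%). Of the risen genes, 287 had a mean under 10 CPM at 5 min, 27 had at most 3 counts over its 3 libraries together and 8 had 0 counts there. At 30 min 198 risen genes averaged at least 100 CPM and 5 at least 1000 CPM. Of the fallen genes, 75 averaged at least 100 CPM at 5 min, 1 of them at least 1000 CPM. At 30 min 120 fallen genes averaged under 10 CPM and 8 had at most 3 counts over its 3 libraries.

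Together the risen genes took up 6.63% to 7.57% of all counts in the 30 min libraries, against 2.94% to 3.17% in the 5 min libraries. The fallen genes held 1.22% to 1.31% of counts at 30 min, against 2.55% to 3.15% at 5 min. These shares describe genes chosen for their change in the same libraries. Other libraries entered the choice only through the shared filter, scaling and estimate of spread. In these the risen genes held 6.84% to 7.01% in N at 45 min, against 3.44% to 3.84% in N at 10 min. Fallen genes held 1.21% to 1.41% in N at 45 min, against 2.01% to 2.90% in N at 10 min. In noN the risen genes' share was 3.88% to 4.07% at 30 min, against 2.83% to 3.12% at 5 min, and the fallen genes' share was 1.31% to 1.53% at 30 min, against 2.07% to 2.29% at 5 min. In N at 45 and 10 min and in noN, the shares of the 2 times did not overlap for risen or for fallen genes. In N at 30 and 5 min they did not either, but there the choice of the genes favours such a gap.

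The 4 IDs were named by a rule, the 2 largest rises and the 2 largest falls among called genes with at least 10 CPM in one of the groups and no overlap between them. The rule was met by 719 risen and 318 fallen genes. Positions are those of the count table (AGPv4) and run over all exons of a gene.

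Zm00001d038718, on the minus strand of chromosome 6 from 163324435 to 163325813 with 3 exon blocks (exons merged over transcripts) and 1084 exon bases, was almost uncounted at 5 min. It had 15.7, 61.7 and 16.7 CPM in N at 30 min, against 0, 0.429 and 0 CPM in N at 5 min. Its 224 counts at 30 min stand against 1 count at 5 min, a ratio of 237 with an exact interval of 42.2 to 9420 at the 0.95 level, which covers counting error only. The fitted log2 fold change was 7.40 (SE 1.06, adjusted p = 1.835e-06, edgeR), and it depends on how a near-zero group is treated. The 3 libraries of 30 min lie far above those of 5 min, and replicate 2 lies well above the other 30 min libraries. Its N means at 45, 60, 90 and 120 min were 44.9, 84.6, 236 and 159 CPM, while no noN group averaged above 2.58 CPM.

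Zm00001d018161 lies on the minus strand of chromosome 5 from 215727084 to 215730071 and has 4 exon blocks and 2289 exon bases. It had 457, 614 and 403 CPM in N at 30 min, against 5.42, 2.57 and 0.92 CPM in N at 5 min. Every 30 min library exceeded every 5 min library by a wide margin, with a log2 fold change of 7.30 (SE 0.65, adjusted p = 9.58e-12, edgeR). It was already at 14.7 ± 10.7 CPM at 10 min, 51.2 ± 6.4 CPM at 15 min and 119 ± 16.4 CPM at 20 min in N (SD, n = 3 each), and its highest N mean was 1449 ± 287 CPM at 60 min. In noN it had 6.59, 7.42 and 12.8 CPM at 30 min, against 5.37, 1.59 and 2.60 CPM at 5 min, and its log2 fold change there was 1.48 (SE 0.73, adjusted p = 0.3201, edgeR). The rise from 5 to 30 min was larger in N than in noN, by 5.81 on the log2 scale (SE 1.11, adjusted p = 0.001476, edgeR). Later noN means were 23.3, 29.2, 18.9 and 5.97 CPM at 45, 60, 90 and 120 min, against 3.19 CPM at 5 min.

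The first fallen ID, Zm00001d032030, is a gene of 1 exon block of 547 bases on the minus strand of chromosome 1, from 209949067 to 209949613. It had 0.899, 0.393 and 1.04 CPM in N at 30 min, against 12.8, 7.72 and 24.9 CPM in N at 5 min. The groups did not overlap, although the 5 min libraries spread widely, and the log2 fold change was -4.24 (SE 0.71, adjusted p = 3.117e-05, edgeR). In noN it fell too, to 0, 1.24 and 0.960 CPM at 30 min, against 5.01, 16.7 and 11.7 CPM at 5 min, a log2 fold change of -3.85 (SE 0.69, adjusted p = 0.0006131, edgeR). At 120 min its mean in N was 14.1 ± 3.13 CPM (SD, n = 3), against 15.1 ± 8.80 CPM in N at 5 min (SD, n = 3), and at 120 min in noN it was 3.06 ± 1.17 CPM (SD, n = 4).

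The second, Zm00001d053213, also has 1 exon block, of 423 bases on the plus strand of chromosome 4 from 220420178 to 220420600. It had 2.25, 4.72 and 5.74 CPM in N at 30 min, against 69.3, 48.5 and 63.5 CPM in N at 5 min. Every 30 min library lay far below every 5 min library, and the log2 fold change was -3.83 (SE 0.56, adjusted p = 3.011e-06, edgeR). In noN the gene had 1.46, 1.24 and 3.84 CPM at 30 min, against 17.5, 30.6 and 24 CPM at 5 min, with a log2 fold change of -3.37 (SE 0.62, adjusted p = 0.0009001, edgeR). The difference between the falls in N and in noN was -0.39 (SE 1.23, adjusted p = 0.9558, edgeR) for Zm00001d032030 and -0.46 (SE 0.96, adjusted p = 0.9248, edgeR) for Zm00001d053213. With such errors on the log2 scale, even a difference of much more than a few fold could go undetected in either gene.

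**Figure D2:**
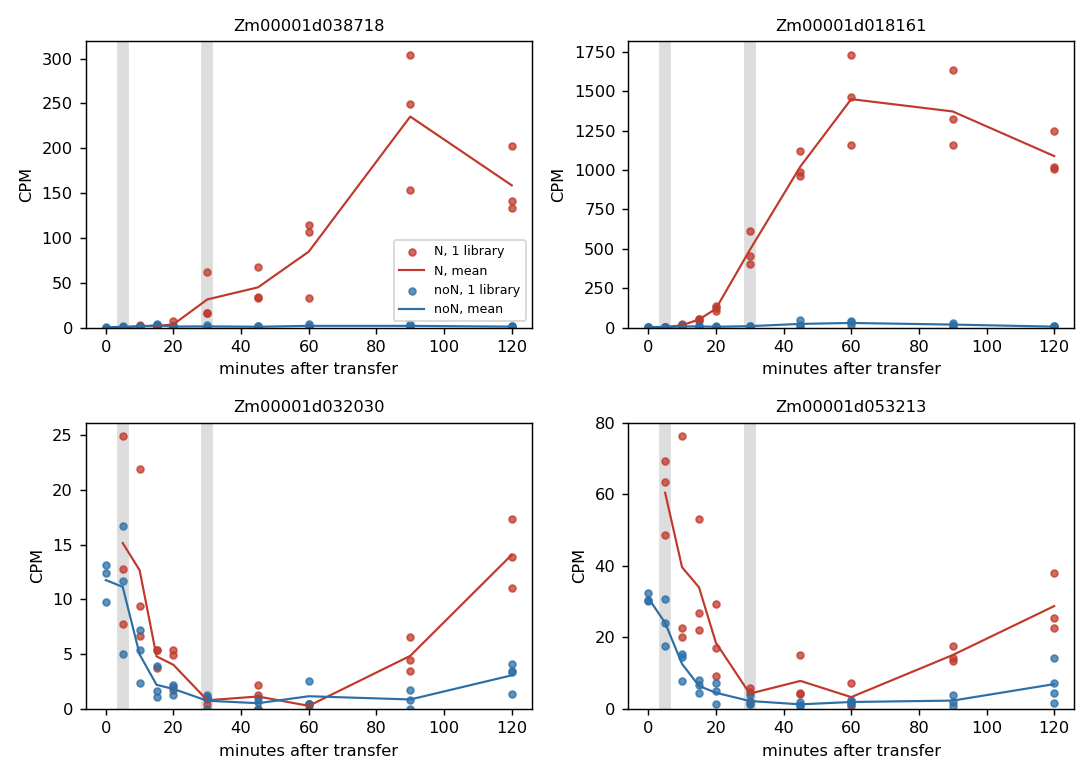
CPM in each library of N and noN against minutes after transfer for the 4 named IDs, with lines through the group means and grey bands at 5 and 30 min. The upper genes climb in N and lie near the axis in noN on the scale of their panels, which hides smaller changes in noN. The lower genes fall between 5 and 30 min in both media.

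Of the 4 named IDs, the difference between the media was called for Zm00001d018161. For Zm00001d038718 the difference was 6.76 on the log2 scale (SE 2.23, adjusted p = 0.1976, edgeR), with a change in noN of 0.64 (SE 1.28, adjusted p = 0.8741, edgeR). In N at 45 min against N at 10 min, whose libraries entered the comparison only through the shared fit, all 4 changed again in the same direction. There the log2 fold change was 4.67 (SE 0.69, adjusted p = 4.561e-06, edgeR) for Zm00001d038718 and 6.12 (SE 0.55, adjusted p = 1.718e-11, edgeR) for Zm00001d018161. It was -3.30 (SE 0.64, adjusted p = 0.0004217, edgeR) for Zm00001d032030 and -2.27 (SE 0.51, adjusted p = 0.002395, edgeR) for Zm00001d053213.

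More genes had risen than fallen at each time up to 60 min. Measured from N at 5 min, 4 genes were higher at 10 min (0.0212%) and none was lower (0%). At 15 min 99 were higher (0.525%) and 4 lower (0.0212%), and at 20 min 338 were higher (1.79%) and 55 lower (0.291%). The 0 lower genes at 10 min compare with 535 lower at an unadjusted p of 0.05, and DESeq2 and limma also called 0. At 45 min the counts were 841 higher (4.46%) and 479 lower (2.54%), and at 60 min 1458 higher (7.73%) and 1152 lower (6.10%). They reached 1990 higher (10.5%) and 2048 lower (10.9%) at 90 min, and 2267 higher (12.0%) and 2189 lower (11.6%) at 120 min. All of these share the 5 min libraries, so they describe 1 time course and are not separate tests.

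In N, the median level of the 822 risen genes was 4.17, 4.49, 4.85, 5.01 and 5.46 at 5, 10, 15, 20 and 30 min, as log2 CPM with a prior count of 3. For 45, 60, 90 and 120 min it was 5.36, 5.42, 5.09 and 5.01. The 366 fallen genes had median levels of 5.31, 5.08, 5.02 and 4.90 at 5, 10, 15 and 20 min and then 4.30 at 30 min. After that they stood at 4.25, 4.37, 4.65 and 4.83 at 45, 60, 90 and 120 min. The median of all genes tested stayed between 4.39 and 4.47 in N. The risen genes' median climbed at every step up to 30 min, while the widest step of the fallen genes' decline lay between 20 and 30 min, where the choice of the genes bears on both.

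In noN the same risen genes had a median of 4.29, 4.11, 4.63, 5.04 and 5.18 at 0, 5, 30, 60 and 120 min. At 120 min this was above the 5.01 of N. The fallen genes in noN had 5.13, 5.00, 4.34, 4.58 and 4.82 at those times, so at 30 min the medians of N and noN lay within 0.04 of each other on this scale. At 5 min the fallen genes' median was 5.31 in N and 5.00 in noN, a gap that the choice of the genes by their high 5 min value in N bears on.

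**Figure D3:**
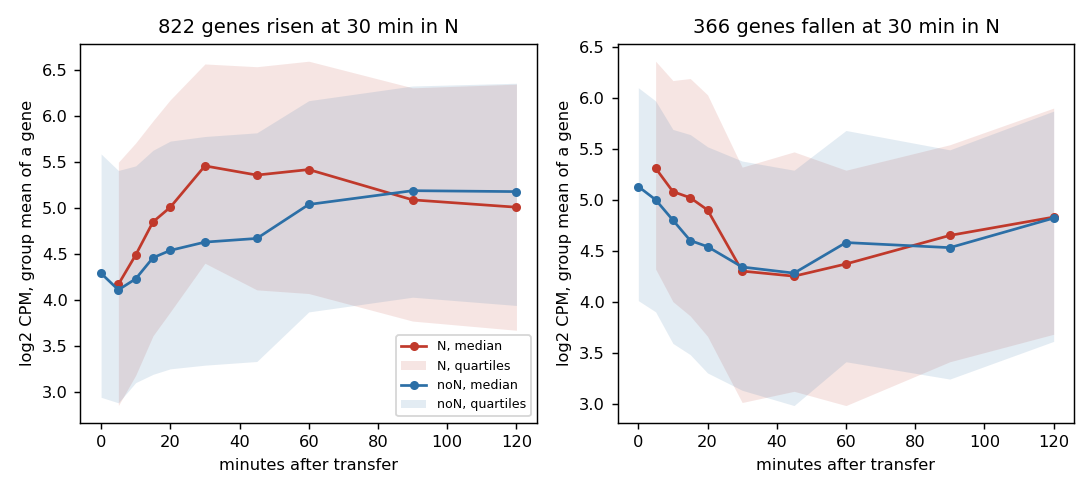
Median log2 CPM of the 822 risen genes and of the 366 fallen genes over minutes after transfer, in N and noN, with bands from the lower to the upper quartile of the genes. The risen genes reach 5.46 at 30 min in N, against 4.63 in noN, while the fallen genes stand at 4.30 in N and 4.34 in noN.

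The time of the highest N mean was spread among the risen genes. The choice of genes favours 30 min, which held it for 349 of them (42.5%). At 20, 45, 60, 90 and 120 min it lay for 58 (7.06%), 92 (11.2%), 170 (20.7%), 72 (8.76%) and 77 (9.37%). Of all 18872 genes tested, 1485 had it at 30 min, and 2659, 1281, 1566, 2541 and 3411 at those other times. The lowest N mean of the fallen genes lay at 30 min for 163 (44.5%). At 45, 60, 90 and 120 min it lay for 41 (11.2%), 89 (24.3%), 49 (13.4%) and 19 (5.19%). Of all genes tested 1657 had their lowest N mean at 30 min, and 1571, 1530, 2482 and 3337 at those later times.

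A second pair of times inside the N arm, 45 min against 10 min, shares no library with the first pair. Both pairs come from the fit of all 58 libraries and use the same estimate of a gene's spread, so repeated calls are not fully independent. At 45 against 10 min 952 genes were higher (5.04%) and 650 lower (3.44%). Of the 822 risen genes 450 were called higher again (54.7% of them, and 47.3% of all higher calls), 2 were called lower, and 768 had a positive log2 fold change, with a median of 0.84. Of the 366 fallen genes 150 were called lower (41% of them, and 23.1% of all lower calls) and 353 had a negative log2 fold change, with a median of -0.73. None of the fallen genes was called higher, at an unadjusted p of 0.05 or by DESeq2 or limma either. The whole count of 1602 calls (8.49%) leaned on single libraries and was 923 without replicate 2 of 10 min, 983 without replicate 1 of 45 min and 1041 without replicate 2 of 45 min. Among the fallen genes called lower there were 99 without replicate 1 of 10 min and 96 without replicate 1 of 45 min.

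The same times in noN gave fewer calls, 193 higher (1.02%) and 256 lower (1.36%). Of the risen genes 121 were also called higher in noN (14.7% of them, and 62.7% of the higher calls in noN), 10 were called lower, and 659 had a positive log2 fold change, with a median of 0.42. Of the fallen genes 97 were also called lower in noN (26.5% of them, and 37.9% of the lower calls) and 328 had a negative log2 fold change, with a median of -0.54. Over all genes tested the median in noN was 0.02. The total of 449 calls (2.38%) was 167 without replicate 2 of noN at 30 min, 283 without replicate 3 of it, 210 without replicate 1 of noN at 5 min and 263 without replicate 3 of it. Across these 4 fits 54 to 69 risen genes were called higher, and without replicate 2 of noN at 30 min 49 fallen genes were called lower. Leaving out replicate 1 of noN at 30 min gave 63 such fallen genes.

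**Figure D4:**
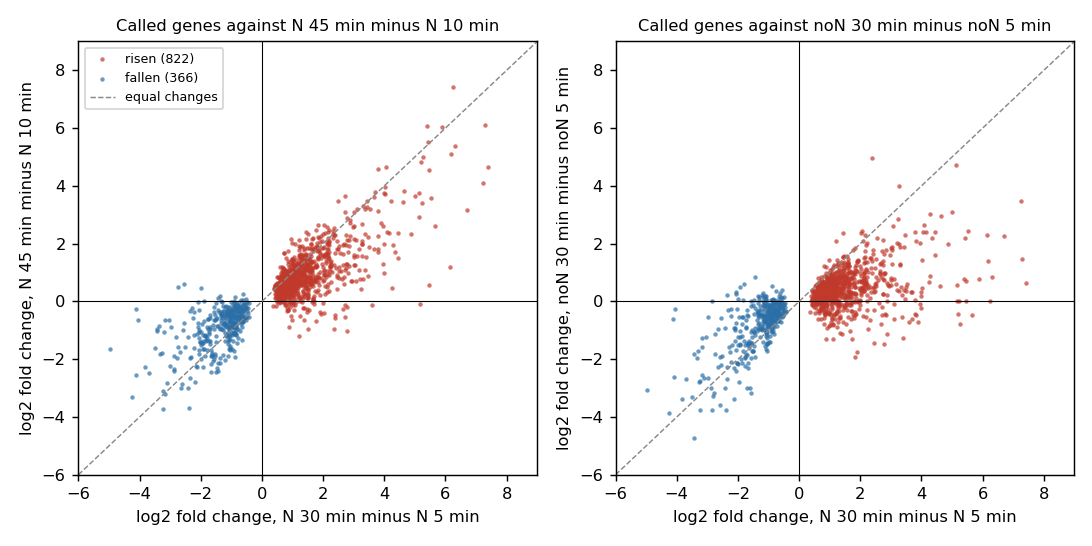
Log2 fold change of each risen and each fallen gene in N at 30 min minus 5 min (x axis) against its log2 fold change in N at 45 min minus 10 min (left panel) and in noN at 30 min minus 5 min (right panel), neither of which uses the libraries of the x axis. Risen genes sit mostly above 0 on the y axis in both panels, with medians of 0.84 and 0.42, and fallen genes mostly below 0, with medians of -0.73 and -0.54.

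Whether the change between 5 and 30 min differed between the media was tested as an interaction. This test called 167 genes (0.885%), of which 154 changed more upward in N (0.816%) and 13 more downward (0.0689%). Among the 822 risen genes 127 were called with a larger rise in N, and among the 366 fallen genes 6 were called with a larger fall in N. The median difference was 0.82 for the risen genes and -0.47 for the fallen genes, against -0.01 for all genes, but both sets were chosen in libraries that this test shares. The interaction has a larger error than the comparison within N, so a gene it did not call is not shown to respond alike in both media. The count was 93 without replicate 1 of noN at 5 min, 110 when the same number of N at 5 min was left out, and 118 or more when any other single library was. Among the risen genes 84 were called with a larger rise in N without replicate 1 of noN at 5 min, and among the fallen genes 2 to 6 were called with a larger fall when single libraries were left out.

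The makeup of the noN libraries differed. The mean log2 exon length of their counted molecules was 11.066 to 11.107 at 30 min and 11.022 to 11.050 at 5 min in noN, against 10.986 to 10.992 at 30 min and 10.969 to 10.985 at 5 min in N. With each library's trend over exon length removed, the interaction called 148 genes and 120 risen genes were among those with a larger rise in N. Within N the same removal left 767 risen and 365 fallen genes, of which 758 and 341 were among the first sets.

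The later course in N was read from other libraries. The mean of 60, 90 and 120 min was set against the mean of 10 and 15 min. These libraries entered the choice only through the shared fit. In this comparison 6803 genes changed (36%), 3298 higher (17.5%) and 3505 lower (18.6%). Of the risen genes 412 were higher at the later times, 74 were lower and 336 were not called. Of the fallen genes 198 were lower at the later times, 13 were higher and 155 were not called. In noN the risen genes' median log2 CPM was 4.23 and 4.46 at 10 and 15 min. At 60, 90 and 120 min in noN it was 5.04, 5.19 and 5.18. The risen genes thus stood higher later in noN as well, where this comparison was not tested. The fallen genes had noN medians of 4.80 and 4.60 at 10 and 15 min, then 4.58, 4.53 and 4.82. The 74 risen genes that were lower later had a median log2 CPM in N of 4.99, 5.53, 5.84, 5.98 and 6.06 at 5, 10, 15, 20 and 30 min, and of 5.58, 5.26, 4.62 and 4.56 at 45, 60, 90 and 120 min. The split into later higher and lower genes fixes high values at 10 and 15 min and low values from 60 min on, so these levels are a description only. The 412 that were higher later had medians of 4.25, 5.48, 5.83 and 5.59 at 5, 30, 60 and 120 min.

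The authors' deposited network pairs 196 regulators with 2294 targets, all of the regulators being among the targets as well. The sources used here do not say how it was built, and a network deposited with these libraries is not independent evidence of their changes. Of the regulators 54 rose (27.6%) and 19 fell (9.69%), and of the targets 385 rose (16.8%) and 76 fell (3.31%). Among the 16578 genes outside the network 437 rose (2.64%) and 290 fell (1.75%). Genes in the network had a higher level, with a median average log2 CPM of 5.30 for regulators and 5.51 for targets, against 4.30 outside it, and more genes were called at higher levels. Of 5 equal classes of all genes by level, 5.96% rose in the highest and 2.33% in the lowest.

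The 54 risen regulators together counted 6195, 6819 and 5763 CPM at 30 min, against 1917, 1962 and 2417 CPM at 5 min. They were chosen for their rise in these same libraries, so the gap in the sum follows from the choice. Over all 196 regulators the median log2 fold change was 0.11. The log2 fold changes of the 54 ran from 0.48 to 6.70 with a median of 1.75. In N at 45 min against 10 min 32 of them were called higher, where 5.04% of all genes were. In noN at 30 against 5 min 8 were called higher and 5 lower, where 1.02% and 1.36% of all genes were. For 23 the rise was larger in N than in noN (0.816% of all genes), in a test that shares the libraries of the choice. At 60 to 120 min 21 were higher and 12 lower than at 10 to 15 min, where 17.5% and 18.6% of all genes were. Of all 196 regulators, 38 were higher and 94 lower in that comparison. Both named risen IDs are targets in the network, and neither named fallen ID is in it.

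The 19 fallen regulators counted 1123, 1022 and 1001 CPM at 30 min, against 1896, 1988 and 2921 CPM at 5 min, with replicate 3 of 5 min the highest. They too were chosen for their change in these libraries. Their log2 fold changes ran from -2.35 to -0.61 with a median of -1.17. In N at 45 min against 10 min 13 were called lower (3.44% of all genes), in noN 6 were (1.36% of all genes), and 14 were lower at 60 to 120 min than at 10 to 15 min (18.6% of all genes). None was called in the interaction by edgeR, DESeq2 or limma, and 2 had a larger fall in N at an unadjusted p of 0.05. Without replicate 3 of 5 min 8 regulators fell, and 12 did when any 1 of the 30 min libraries was left out. Fallen targets numbered 42 without that 5 min library, 50 without replicate 2 of 30 min and 47 without replicate 3 of 30 min.

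The share of genes called varied with the number of exons. Of the genes with 1 exon block, 6.32% rose and 4.87% fell, with 2 blocks 6.44% and 2.7%, and with 11 or more blocks 1.91% and 0.506%. Without the features of ENSRNA identifiers, which are non-coding RNA genes, 6.79% rose and 4.49% fell at 1 block. The share called decreased from 2 blocks upward in both directions. Among genes above the median level it decreased at every step, with 11.6% risen and 10.2% fallen at 1 block and 2.68% and 0.793% at 11 or more. Median exon length was 1943 bases for risen genes, 1447.5 bases for fallen genes and 2095 bases for genes not called. Of 5 equal classes by exon length, from the shortest, of up to 1207 bases, to the longest, of 4120 bases or more, 3.99%, 5.33%, 5.65%, 4.51% and 2.31% rose and 3.62%, 2.39%, 1.75%, 1.22% and 0.715% fell. The fallen share declined with length, and the risen share was highest in the middle class.

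Genes of 1 exon block made up 13.3% of risen genes, 23% of fallen genes and 8.66% of genes not called. Their level was low, with a median average log2 CPM of 2.53, against 4.47 for all genes tested. Genes of few counts can be called only for large changes, which bears on the fold changes given here. The 109 risen genes of 1 block had a median log2 fold change of 2.16. Their median levels were 18.4 CPM at 30 min, against 3.34 CPM at 5 min. In the other libraries 59 of them were called higher in N at 45 min against 10 min (5.04% of all genes) and 7 in noN (1.02%). The 84 fallen ones had a median of -1.95, with 6.37 CPM at 30 min, against 26.8 CPM at 5 min, and 34 were called lower in N at 45 min against 10 min (3.44% of all genes) and 37 in noN (1.36%). Both named fallen IDs are of this kind. Leaving out N libraries changed these counts: 39 genes of 1 block fell without replicate 3 of 5 min, 55 fell without replicate 3 of 30 min, and 70 rose without replicate 2 of 5 min. Where at least 50 counts in 3 libraries were asked for, 61 rose.

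**Figure D5:**
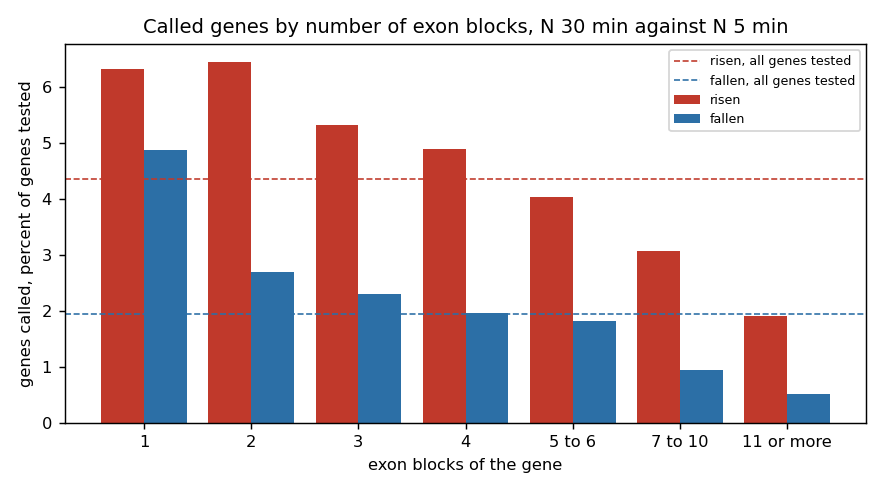
Share of genes called, in percent of the genes tested, by the number of exon blocks of a gene, for risen and fallen genes of N at 30 min against 5 min. Both shares are highest among genes with 1 or 2 blocks, at 6.32% and 6.44% for risen and 4.87% and 2.7% for fallen genes, and lowest at 11 or more.

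Features with ENSRNA identifiers, which Ensembl gives to non-coding RNA genes, were mostly lower at 30 min. Of the 120 tested, 12 fell (10.0%) and none rose, where 1.94% of all genes fell and 4.36% rose, and their median log2 fold change was -0.72, with quartiles of -1.12 and -0.41, against a median of -0.01 over all genes. Their level was low, with a median average log2 CPM of 2.42, and in the lowest of 5 equal classes of genes by level 1.11% fell and 2.33% rose. No ENSRNA gene rose by DESeq2 or limma or at an unadjusted p of 0.05, where edgeR had 40 lower, against 1446 of all 18872 genes. Summed over the 120 they counted 1804, 1641 and 1149 CPM in N at 30 min, against 2462, 2457 and 3017 CPM in N at 5 min. The 12 fallen ones counted 447, 400 and 215 CPM at 30 min, against 744, 782 and 917 CPM at 5 min. The groups did not overlap in the sum over the 120. The 12 were chosen for their fall in these same libraries, so the gap in their sum was fixed by the choice. In both sums replicate 3 was lowest at 30 min and highest at 5 min.

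The number of fallen ENSRNA features changed when single libraries were left out and with the length correction. Without replicate 3 of 30 min 2 fell, without replicate 3 of 5 min 4 fell, and with the trend over exon length removed 2 fell and the median was -0.37. Their summed level had no steady course over N: it was 2645 ± 322, 1988 ± 575, 2462 ± 675, 2523 ± 124, 1532 ± 341 and 1799 ± 234 CPM at 5, 10, 15, 20, 30 and 45 min, and 1638 ± 416, 1770 ± 40.8 and 1416 ± 176 CPM at 60, 90 and 120 min (SD, n = 3 each). In noN it was 1199 ± 266 CPM at 30 min and 1271 ± 202 CPM at 5 min (SD, n = 3 each). At 0, 60 and 90 min in noN it was 1161 ± 116, 2010 ± 550 and 1225 ± 179 CPM (SD, n = 3 each), and at 120 min 2108 ± 603 CPM (SD, n = 4). None of the 120 was called in N at 45 min against 10 min, in noN or in the interaction by edgeR, DESeq2 or limma. At an unadjusted p of 0.05, 5, 6 and 20 of them were lower in these 3 comparisons, and 2 were higher in the first. At 60 to 120 min against 10 to 15 min in N, edgeR called 32 of the 120 lower and 5 higher, where 18.6% of all genes were lower and 17.5% higher, and 6 of the 12 fallen ones were lower. Of the 10 mitochondrial genes tested none was called in N at 30 against 5 min by the same tools, and 2 were lower at an unadjusted p of 0.05. No plastid gene and no zma-MIR gene passed the filter on low counts.

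Changed genes were found on all 10 chromosomes. The share of genes that rose ran from 3.33% on chromosome 4 to 5.41% on chromosome 9, and the share that fell from 1.30% on chromosome 9 to 2.48% on chromosome 1. A risen gene had a risen gene next to it, among genes tested, in 96 of 818 cases (11.7%), while 8.52% of all genes had one. For fallen genes it was 21 of 365 (5.75%), against 3.87% of all genes. There were 50 adjacent pairs of risen genes, 23 of them on the same strand, and 11 pairs of fallen genes, 9 of them on the same strand. Of all adjacent pairs, 9481 of 18726 were on the same strand. The tightest run of 3 was of fallen genes on the same strand of chromosome 2, from 6886753 to 6893936, a span of 7.18 kb. Neighbours in such a span can be near-identical copies, whose reads the deposited counts may split unevenly, so they may not be separate observations. The longest was of risen genes on chromosome 1, from 279603784 to 279838126, a span of 234 kb.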

How the data were processed

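The authors' deposited table holds raw counts per gene and library. Per the file headers, sense-strand reads were counted after removal of duplicates by molecular identifier with AGPv4 genes of release 37, and multi-mapping reads are not switched on in the recorded command. Counts of near-identical genes may therefore be missing or uneven between copies. Reads had passed through featureCounts 2.0.1, STAR 2.7.6a, fastp 0.21.0 and UMI-tools 1.1.1 (no order implied), per the submitters' processing notes. The authors' deposited quantile normalized values are a score rounded to whole numbers (18616 genes, 57 libraries), used only in an alternative. The weight in the authors' deposited network is a score of a regulator and target pair and was not used beyond which genes it lists.

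All 58 libraries (19 groups) were fitted in 1 quasi-likelihood model with edgeR 4.0.16 in R 4.3.3, TMM scaling and filterByExpr (minimum count 10, minimum total 15), which kept 18872 of 46335 features and 99.7% of counts and left 39 residual degrees of freedom. Genes were called at a Benjamini-Hochberg adjusted p of 0.05 over all genes tested. Fold changes are log2, later minus earlier time or N minus noN, and CPM values are TMM-scaled counts. The standard errors given with edgeR are approximate, the absolute log2 fold change divided by the square root of the F statistic of its test. Where a group is near 0 they can be too small: for Zm00001d038718 DESeq2 gave an SE of 1.45, against 1.06. Alternatives used DESeq2 1.42.0, limma 3.58.1 (pseudocount 1), other filters, fits of fewer libraries, a replicate block, a length correction and leaving out each library. Named genes were the 2 risen and 2 fallen IDs with the largest log2 fold change among called genes with at least 10 CPM in a group and no overlap. The comparison, the lists and the rule were chosen with earlier results of these data known.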

Additional observations from a re-analysis of the deposited data

Results flagged for a closer look

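The change between 5 and 30 min differed between N and noN for 167 genes by the interaction test of edgeR (adjusted p of 0.05), 154 of them more upward in N and 13 more downward. One of the 4 named IDs is among them: the log2 change of Zm00001d018161 was larger in N than in noN by 5.81 (SE 1.11, adjusted p = 0.001476, edgeR), with a change of 7.30 in N and 1.48 in noN. Groups of 3 libraries were too small for the search for single outlying samples.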

How the results depend on the processing

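No gene called between N at 30 and 5 min changed its direction in those of the 16 other fits that tested it. These fits reuse libraries of the same groups, so a reversal was unlikely from the start. The filter of at least 50 counts in 3 libraries tested 694 of the 822 risen and 299 of the 366 fallen genes. The 6 libraries alone called 595 of the 822 and 217 of the 366 again. The 4 named IDs kept direction and call in each fit. Asking also for a log2 change of at least 1 left 776 of the 1188 genes. The other settings that kept all libraries or fewer groups gave 883 (the 6 libraries alone) to 1242. Leaving out each library in turn gave 882 to 996 genes for this comparison, 93 to 170 for the interaction, 923 to 1384 for N at 45 against 10 min, 167 to 376 for noN at 30 against 5 min and 5972 to 6724 for the later against the earlier times in N. Deviations from the group means of same-numbered libraries of 30 and 5 min correlated at -0.045, 0.177 and 0.200, so replicate numbers were not taken as pairs. With the replicate number as a block the 58 libraries gave 1242 genes and the 6 libraries 1169. The log2 change of Zm00001d038718 ran from 6.43 (without replicate 2 of 30 min) to 9.39 (without replicate 2 of 5 min), against 7.40 with all libraries, and was 5.22 with limma on the quantile normalized values. That of Zm00001d018161 was 8.08 without replicate 1 of 5 min, against 7.30, and that of Zm00001d032030 was -3.64 with limma, against -4.24. Fewer regulators fell in the fit of the 6 libraries, 12 against 19. At this depth genes of a few counts could show only very large changes.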
